A study of Homo sapiens with 24 samples.

Results

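The 10 genes described here are AKR1C1, AKR1C2, AKR1C3, AKR1B10, NQO1, GCLM, GPX2, TXNRD1, SLC7A11 and ALDH3A1, all known targets of the transcription factor NRF2. They were listed by symbol and found by their Ensembl identifiers among the 60236 genes of the deposited count table, and each of the 10 had its own row. They were followed across 24 RNA-seq libraries from HEK293T, a human embryonic kidney line, and A549, a human lung adenocarcinoma line. In each line, cells were transfected with 1 of 4 plasmids and collected after 48 h, with 3 replicates for each of the 8 groups of line and plasmid. The plasmids expressed the noncoding RNA snaR-A from a U6 promoter, a scrambled snaR-A sequence from a U6 promoter (scramble), the U2 snRNP protein SF3B2, or eGFP, so that every group, controls included, was transfected. HEK293T was grown in DMEM and A549 in F-12K, both with serum, so cell line and medium cannot be told apart. The samples were designed to ask how snaR-A and SF3B2 affect mRNA processing, and the contrast of the lines is a by-product of that design.

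NRF2, encoded by NFE2L2, is held in the cytoplasm and sent for degradation by KEAP1, an adaptor of the CUL3-RBX1 ubiquitin ligase. When KEAP1 is inactive, NRF2 enters the nucleus, pairs with a small MAF protein and activates genes for glutathione and thioredoxin metabolism, quinone and carbonyl reduction and drug conjugation through the antioxidant response element. A549 is known to carry a mutant KEAP1 and is widely used as a line with high NRF2 activity. The gene counts used here do not report the KEAP1 sequence.

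Depth was high throughout, with 195186194 to 260878268 estimated counts per library, and a count of 0 allows up to 3 counts, or 0.0115 to 0.0154 CPM (counts in proportion to the library total). Levels are given as CPM scaled with TMM factors across the 24 libraries. Each of 11 genes typical of A549 was higher in each of the 12 A549 libraries than in each of 11 HEK293T libraries. Of 12 genes typical of HEK293T, 9 were higher in each of the 11 HEK293T libraries, INA and MAP1B were higher in A549, and CRMP1 was at most 0.251 CPM in either line. The remaining HEK293T library, eGFP replicate 3, stood apart. Its A549-typical genes summed to 284 CPM, against 38.6 to 61.8 CPM in the other HEK293T libraries and 6159 to 6678 CPM in A549. It was left out of the HEK293T values and tests below and is described on its own. For the library titled A549 snaR-A replicate 3, some labels name HEK293T, and it was kept in A549 as titled. The labels do not say whether replicates came from separate cultures, although the study calls them biological replicates, so the p-values measure the spread between these libraries.

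The antioxidant response element has the core TGACNNNGC, which was searched for on both strands of the 250 bases before the starts annotated in RefSeq for the members. RefSeq windows on GRCh38.p14 were found for 7 of the 10 members. AKR1B10, SLC7A11 and ALDH3A1 had no entry. These RefSeq starts can differ from the GENCODE gene positions given further on. By GENCODE, the GCLM and AKR1C1 windows reach into the gene, past its start at 93909456 and 4963253. The AKR1C2 window and the second TXNRD1 window lie within the gene. The core occurred in the windows of 3 members, GCLM, TXNRD1 and GPX2, and in 10.9% of all 35116 windows, or 13.2% of genes. Of the 31 other genes of the pathway with an entry, 8 held it. The core followed by A, a subset of these matches, occurred in the same 3 members and in 2.59% of all windows, and TGANTCA, the AP-1 type site, in 0 of the 7 members and in 6.57% of all windows. The windows with the core are shown to place it near these starts, 5′ to 3′ on the strand of the gene, with the core in capitals. TXNRD1 has 2 annotated windows.
GCLM, chr1:93909431-93909680, minus strand: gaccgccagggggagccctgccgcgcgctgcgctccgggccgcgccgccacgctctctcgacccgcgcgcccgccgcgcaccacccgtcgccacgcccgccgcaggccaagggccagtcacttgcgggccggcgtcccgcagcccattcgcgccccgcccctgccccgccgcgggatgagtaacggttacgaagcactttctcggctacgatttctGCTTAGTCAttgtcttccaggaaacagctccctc
TXNRD1, chr12:104215529-104215778, plus strand: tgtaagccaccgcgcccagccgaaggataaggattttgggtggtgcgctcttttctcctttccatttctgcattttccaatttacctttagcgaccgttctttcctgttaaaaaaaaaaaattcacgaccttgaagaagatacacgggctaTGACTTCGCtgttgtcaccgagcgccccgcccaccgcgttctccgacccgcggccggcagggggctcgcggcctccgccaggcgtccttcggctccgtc
TXNRD1, chr12:104286782-104287031, plus strand: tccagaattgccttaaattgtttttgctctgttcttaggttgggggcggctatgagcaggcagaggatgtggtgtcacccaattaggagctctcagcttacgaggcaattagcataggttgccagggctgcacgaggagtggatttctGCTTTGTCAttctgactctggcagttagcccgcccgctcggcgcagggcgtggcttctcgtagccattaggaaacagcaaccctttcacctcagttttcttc
GPX2, chr14:64942746-64942995, minus strand: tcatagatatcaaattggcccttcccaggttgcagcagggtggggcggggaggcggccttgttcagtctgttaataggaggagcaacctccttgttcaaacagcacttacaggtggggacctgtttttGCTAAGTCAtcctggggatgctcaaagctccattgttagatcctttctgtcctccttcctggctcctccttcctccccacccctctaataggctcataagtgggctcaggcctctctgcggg
The capitals began 34 bases before the RefSeq start in GCLM, 99 and 102 bases before it in the TXNRD1 windows and 122 bases before it in GPX2. The AKR1C1 and AKR1C2 windows are shown because these neighbouring genes are copies that share much of their sequence. Neither held the core.
AKR1C1, chr10:4963165-4963414, plus strand: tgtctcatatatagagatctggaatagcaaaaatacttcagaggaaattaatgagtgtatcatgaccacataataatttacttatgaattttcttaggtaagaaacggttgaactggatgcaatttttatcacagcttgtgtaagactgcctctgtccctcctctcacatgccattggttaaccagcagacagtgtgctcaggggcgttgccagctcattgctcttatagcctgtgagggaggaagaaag
AKR1C2, chr10:5003858-5004107, minus strand: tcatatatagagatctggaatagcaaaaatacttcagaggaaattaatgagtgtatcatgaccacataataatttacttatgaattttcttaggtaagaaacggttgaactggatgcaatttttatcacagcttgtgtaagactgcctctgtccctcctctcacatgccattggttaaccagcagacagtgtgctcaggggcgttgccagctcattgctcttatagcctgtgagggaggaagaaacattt
Over 246 aligned bases the AKR1C1 and AKR1C2 windows were identical at 245, or 99.6%. Identity between AKR1C1 or AKR1C2 and either AKR1C3 window was 79.1% to 80.6%. A match of these letters describes the window and is no evidence of binding, and its absence says only that the letters are not within the 250 bases.

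Very large differences between the lines were seen in the aldo-keto reductases, enzymes that reduce aldehydes and ketones with NADPH. AKR1C1, AKR1C2 and AKR1C3, which also reduce steroids and prostaglandins, lie side by side on chromosome 10 of GRCh38 (AKR1C1 from 4963253 to 4983283, AKR1C2 from 4987775 to 5018031 and AKR1C3 from 5035354 to 5107686). AKR1B10, which reduces retinal and lipid aldehydes, lies on chromosome 7 from 134527567 to 134541412. In A549, AKR1C2 was at 2505 CPM in the lowest library, 3076 in the median and 3472 in the highest. In the 11 HEK293T libraries it was at 0.0944, 0.127 and 1.47 CPM. The lines did not overlap, and the highest HEK293T value belonged to SF3B2 replicate 3, without which the highest was 0.286 CPM. AKR1B10 ran from 2387 through 2866 to 3196 CPM in A549. In HEK293T it ran from 0.0277 through 0.0937 to 4.76 CPM, the last again in SF3B2 replicate 3, and to 0.309 CPM without that library. AKR1C3 was at 1066, 1283 and 1391 CPM in A549 and at 0.0332, 0.0675 and 1.63 CPM in HEK293T. AKR1C1 was at 508, 637 and 833 CPM in A549 and at 0.0423, 0.149 and 0.573 CPM in HEK293T. In all 4 genes A549 was thus at 508 CPM or more and HEK293T, without SF3B2 replicate 3, at 0.309 CPM or less.

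For each gene, edgeR's quasi-likelihood F-test was run over 23 libraries on the mean of the 4 A549 groups against the mean of the 4 HEK293T groups, with Benjamini-Hochberg adjustment over 26543 genes. Between the lines, a call required an adjusted p below 0.05 together with a difference beyond 1 on the log2 scale in either direction. The log2 fold change was 14.04 for AKR1B10 (standard error 0.51, adjusted p = 1.02e-15), 13.86 for AKR1C2 (0.28, adjusted p = 8.65e-20), 13.53 for AKR1C3 (0.36, adjusted p = 5.7e-18) and 11.92 for AKR1C1 (0.23, adjusted p = 4.01e-20). AKR1B10 had the widest error, and HEK293T SF3B2 replicate 3 moved its fold most, from 16901-fold with it to 27180-fold (log2 14.73, standard error 0.14) without it. Of the 31-base words in the annotated transcripts, 31.1% of those of AKR1C1 also occur in AKR1C2 and 44.6% of those of AKR1C2 in AKR1C1, and 18.5% of those of AKR1B10 occur in AKR1B15. The division of reads between AKR1C1 and AKR1C2, and part of those of AKR1B10, is therefore uncertain, while AKR1C3 shared 8.29% of its words with any other gene.

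NQO1, the quinone reductase most often used to read out NRF2 activity, was at 1644, 1886 and 2034 CPM in A549 (lowest, median and highest of 12) and at 3.85, 4.26 and 5.47 CPM in HEK293T (11 libraries). It was clearly present in HEK293T, with 13173 counts over those libraries, and was 423-fold higher in A549 (log2 8.73, standard error 0.08, adjusted p = 4.24e-25, edgeR). ALDH3A1, an aldehyde dehydrogenase that oxidizes aromatic and lipid aldehydes, was at 455, 646 and 753 CPM in A549 and at 0.346, 0.433 and 0.502 CPM in HEK293T. It was 1474-fold higher in A549 (log2 10.53, standard error 0.11, adjusted p = 3.81e-24, edgeR), and none of its 31-base words occurred in another gene. NQO1 lies on chromosome 16 from 69706996 to 69726668 and ALDH3A1 on chromosome 17 from 19737984 to 19748943, both on the minus strand.

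The genes of glutathione and thioredoxin metabolism split into GPX2, nearly silent in HEK293T, and 3 genes that HEK293T also expressed. GPX2, a glutathione peroxidase typical of epithelia of the gut (chromosome 14, 64939152 to 64942746), was at 144, 172 and 230 CPM in A549. In HEK293T it had 0 counts in 2 scramble libraries and 1 snaR-A library, and 1 to 6 counts in 7 others. Replicate 3 of SF3B2 had 27 counts, more than the other 10 HEK293T libraries together, which had 23. GPX2 passed the low-count filter through A549 alone, so it had to differ, and its difference is given from counts pooled by line and scaled to the library totals. The ratio was 7596 (exact 95% interval 5761 to 10234) with all 11 HEK293T libraries and 14950 (9963 to 23584) without SF3B2 replicate 3. These intervals cover counting error only. On the same pooled scale with all 11 libraries the ratio was 7814 for AKR1C2, 4196 for AKR1C3, 3786 for AKR1B10 and 2524 for AKR1C1, and without SF3B2 replicate 3 it was 13666, 12593, 18881 and 3230. GPX2 thus lay among the reductases, and its place in their order changed with that library. In the fit its log2 fold change was 14.32 (standard error 0.19), the highest of the 10. With each plasmid taken on its own it ran from 11.77 to 16.58. Without SF3B2 replicate 3 it was 14.58, under the 14.73 of AKR1B10, so its rank in the fit changed with that library too.

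GCLM, the modifier subunit of the enzyme that makes the first step of glutathione synthesis (chromosome 1, 93885199 to 93909456), was at 413, 433 and 469 CPM in A549 and at 45.2, 48.8 and 51.8 CPM in HEK293T. SLC7A11, the cystine importer that feeds that synthesis (chromosome 4, 138164097 to 138242349), was at 541, 572 and 628 CPM in A549 and at 35.9, 54.1 and 61.1 CPM in HEK293T. TXNRD1, the cytosolic thioredoxin reductase (chromosome 12, 104215779 to 104350307), was at 3149, 3348 and 3640 CPM in A549 and at 172, 176 and 200 CPM in HEK293T. All 3 were expressed in both lines, with no overlap between them and with much smaller differences than the reductases above. The log2 fold change was 3.17 for GCLM (standard error 0.03, adjusted p = 1.6e-24), 3.50 for SLC7A11 (0.04, adjusted p = 1.09e-23) and 4.25 for TXNRD1 (0.03, adjusted p = 2.93e-26), which are 8.99-fold, 11.3-fold and 19-fold.

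**Figure D1:**
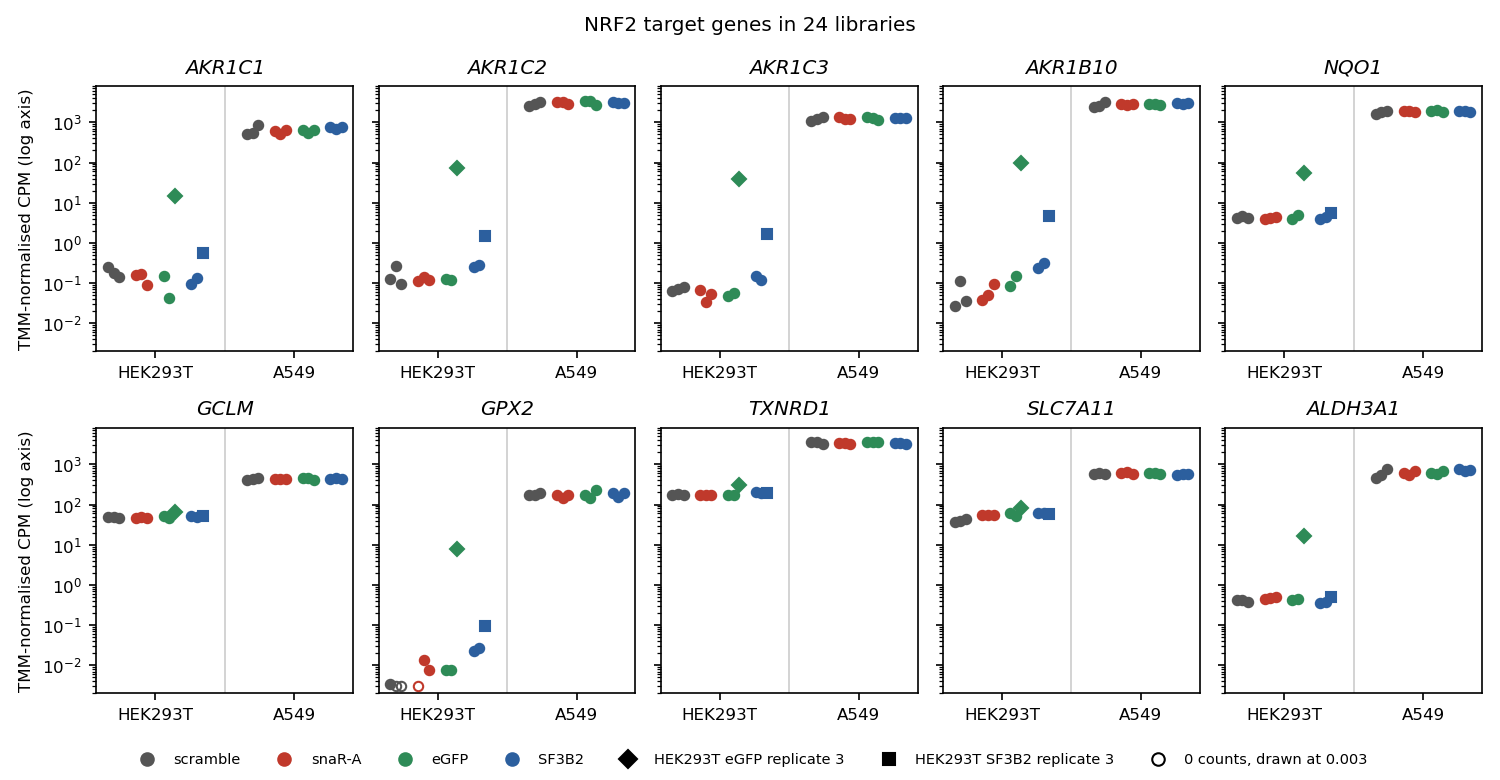
Each panel plots 1 gene, with TMM-normalised CPM on a log axis and 1 point per library, HEK293T to the left and A549 to the right, coloured by plasmid. The A549 points lie in a narrow band in every panel, AKR1C2 between 2505 and 3472 CPM, whereas HEK293T eGFP replicate 3 (diamond) lies between the lines at 74.7 CPM for AKR1C2, and SF3B2 replicate 3 (square) lies above the other SF3B2 points of HEK293T for 7 genes.

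All 10 members were called higher in A549, against 22.8% of the 26543 genes tested. The members were chosen with earlier results of these data known, so neither this count nor their median is support. GPX2 also could not have been tested without being high in A549. A further 24.7% of genes were called lower. The median log2 fold change of the members was 11.22 and that of all genes -0.01. The choice of scaling did not reverse any of the 10, but it shifted them all, since with scaling by library size alone the median of all genes moved to -0.47, and NQO1, for example, moved from 8.73 to 8.26. When each plasmid was taken on its own, the log2 fold change lay between 8.64 and 8.77 for NQO1, between 3.09 and 3.22 for GCLM and between 4.11 and 4.38 for TXNRD1. For AKR1B10 it ran from 10.70 to 15.50. Together the 10 genes took 1.07% to 1.39% of all counts in the A549 libraries and 0.03% to 0.036% in the 11 HEK293T libraries.

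Levels of different genes were compared only per kilobase of the MANE Select transcript. In A549 the order of the medians was AKR1B10 (1770 CPM per kilobase), AKR1C3 (1082), AKR1C2 (957), TXNRD1 (867), NQO1 (748), ALDH3A1 (394), GPX2 (187), AKR1C1 (97.4), GCLM (88.7) and SLC7A11 (59.3). Neighbours whose ranges overlapped were AKR1C3 with AKR1C2, AKR1C2 with TXNRD1 and AKR1C1 with GCLM. The genes come from the same libraries and were not compared library by library, so overlap of ranges does not show that their order varied. In HEK293T the order was TXNRD1 (45.6 CPM per kilobase), GCLM (9.99), SLC7A11 (5.61), NQO1 (1.69) and ALDH3A1 (0.264), none of which overlapped its neighbour, with the other 5 genes at or below 0.0579. The low place of AKR1C1 rests on an annotated transcript of 6543 bases, against 3215 bases for AKR1C2, and on the division of reads between the 2 genes. Within A549, the spread over the 12 libraries was smallest for GCLM, with a coefficient of variation of 4.37%, and largest for AKR1C1 (16.1%), ALDH3A1 (14.7%) and GPX2 (13.2%).

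Of 11 regulators of the pathway, 6 were called higher in A549, 1 was called lower and 4 did not pass the fold limit. Of all genes tested, 22.8% were called higher and 24.7% lower. NFE2L2 itself was at 173, 179 and 206 CPM in A549 (lowest, median and highest) and at 57.6, 65.3 and 77.8 CPM in HEK293T, which is 2.8-fold (log2 1.49, standard error 0.03, adjusted p = 1.55e-19, edgeR). The small MAF genes, whose proteins pair with NRF2, were higher in A549 by log2 fold changes of 3.49 (MAFK), 2.75 (MAFF) and 2.08 (MAFG). SQSTM1, whose protein p62 binds KEAP1 and which NRF2 also activates, was higher by 3.26, and the related factor NFE2L1 by 1.39, each with a standard error of at most 0.10. RBX1, the RING subunit of the ligase, was lower in A549, at 19.1, 22.3 and 25 CPM against 37.4, 49.6 and 57.2 CPM (log2 -1.10, adjusted p = 3.76e-13). KEAP1 (0.70), CUL3 (0.63) and NFE2L3 (-0.83) had adjusted p-values under 0.05 but differences under the fold limit, and BACH1, a repressor at the same element, was at 0.03 (adjusted p = 0.396). KEAP1 was at 44.4 to 56.5 CPM in A549 and 25.6 to 36.3 CPM in HEK293T, and CUL3 at 194 to 238 and 122 to 160 CPM, without overlap. With scaling by library size alone both stayed higher in A549 (0.23 for KEAP1 and 0.16 for CUL3), NFE2L1 was under the fold limit at 0.92, NFE2L3 passed it at -1.30, and BACH1 was at -0.44. The mRNA level of KEAP1 says nothing about the function of its product.

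Of 40 other genes of the pathway, 39 were tested, and 32 were called higher in A549, 2 lower and 5 not, where 22.8% of all genes were called higher and 24.7% lower. ADH7 was not tested. Their median log2 fold change was 2.86. The 3 largest were CYP4F11, a fatty acid hydroxylase (12.57), ABCC3, an exporter of conjugates (11.89), and UGT1A6, a glucuronosyltransferase (11.06). CYP4F11, UGT1A6 and AKR1C4 passed the filter through A549 alone and so had to differ, and they are part of the 39 and of the median. The list was also chosen with earlier results of these data known, so its counts and median are not support. UGT1A6 shares exons with the other genes of its locus, so its count is uncertain, and it was at only 1.66 to 2.92 CPM in A549. ABCC3 was at 267 to 323 CPM in A549 and at 0.0266 to 0.143 CPM in HEK293T. The 3 lowest were GSTM3, a glutathione transferase, at -2.09, TXNRD3, a thioredoxin reductase of the testis, at -1.27, and GPX1, a glutathione peroxidase, at -0.64, the last short of the fold limit. GSTM3 was at 6.84 to 9.49 CPM in A549 and 26.9 to 47.6 CPM in HEK293T, without overlap.

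**Figure D2:**
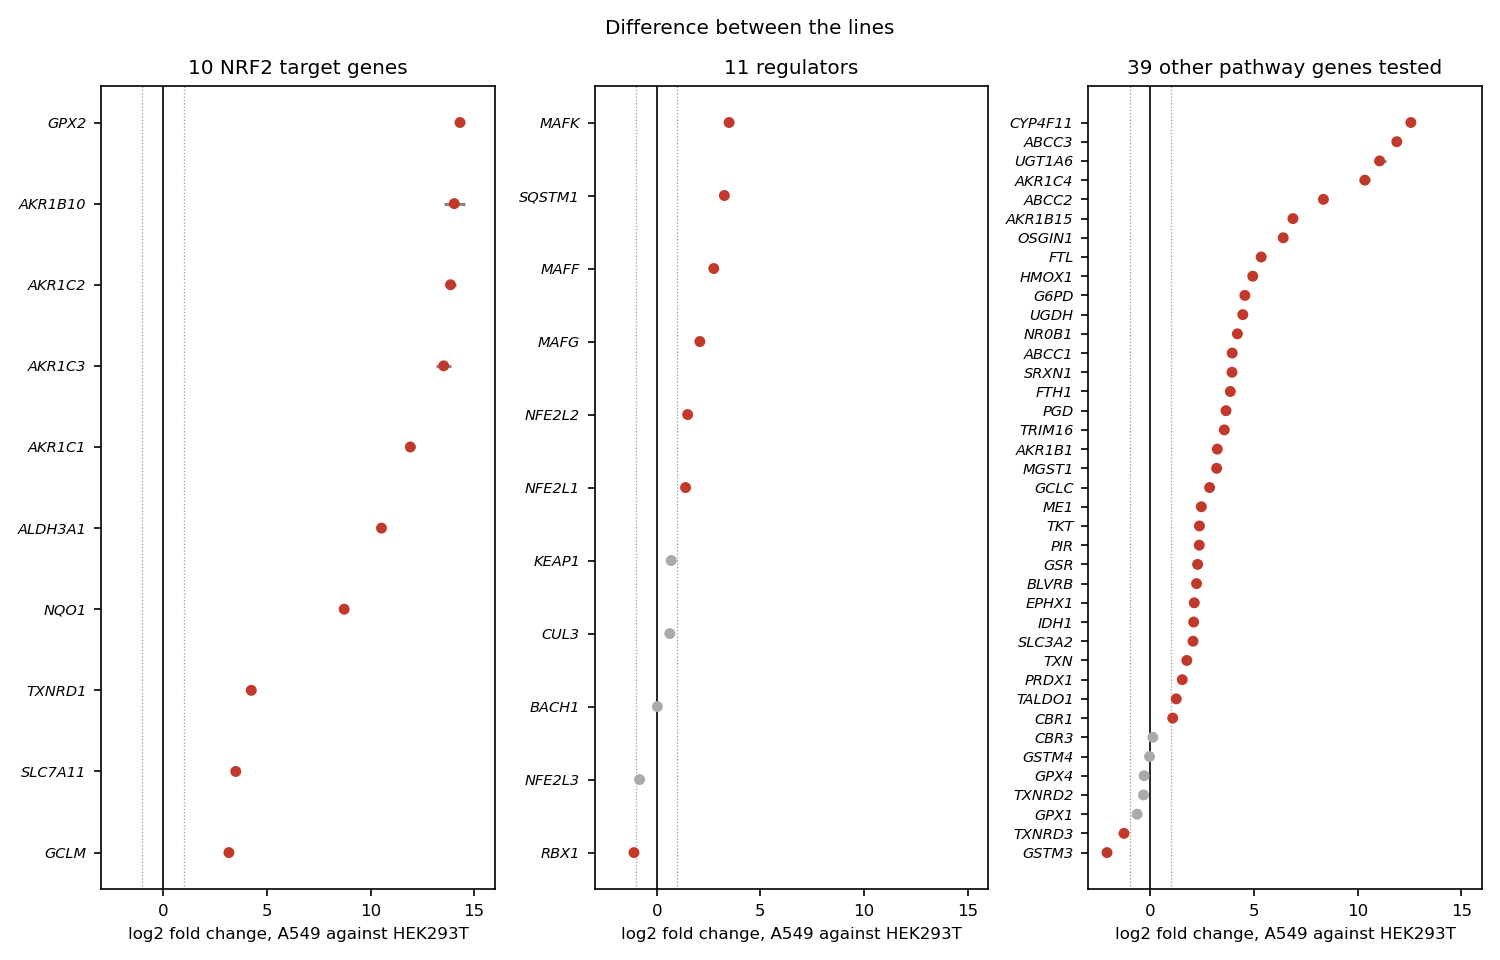
The 3 panels plot the log2 fold change of A549 against HEK293T for the 10 members, the 11 regulators and the 39 other pathway genes tested, each with its standard error as a bar, red where called and grey where not, with dotted lines at -1 and 1. The members run from 3.17 (GCLM) to 14.32 (GPX2), the regulators from -1.10 (RBX1) to 3.49 (MAFK), and the other genes from -2.09 (GSTM3) to 12.57 (CYP4F11).

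HEK293T eGFP replicate 3 held all 10 members above the other eGFP replicates of that line. This count has no share of all genes beside it and only describes that library. AKR1B10 was at 99.5 CPM there, against 0.0858 and 0.15 CPM in replicates 1 and 2. AKR1C2 was at 74.7 against 0.123 and 0.127 CPM. NQO1 was at 56.2 against 4.03 and 5.06 CPM. In relation to the level in the A549 eGFP libraries, the excess of the members over replicates 1 and 2 lay between 2.35% (AKR1C2) and 4.27% (GPX2), with a median of 3.25%, and the excess of the 11 A549-typical genes between 2.96% and 5.33%, with a median of 3.74%. The excess thus covered a narrow range, from genes near 0 in HEK293T to TXNRD1, which rose from 172 and 174 to 310 CPM. Summed over the 10 members, the library held 0.0922% of its counts. HEK293T SF3B2 replicate 3 showed a much smaller excess, with 7 of the 10 members and 6 of the 11 A549-typical genes above both other SF3B2 replicates. These counts have no share of all genes beside them and only describe that library. In relation to the A549 SF3B2 level, the excess of the members lay between -0.816% (SLC7A11) and 0.305% (GCLM), with a median of 0.0515%. That of the 11 A549-typical genes lay between -0.584% and 0.208%, with a median of 0.0364%. In that library AKR1B10 was at 4.76 CPM, which is 0.151% of the A549 SF3B2 level above its replicates, and AKR1C3 was at 1.63 CPM (0.116%). KRT7, an epithelial keratin of the A549-typical list, was at 1.1 CPM (0.0916%).

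**Figure D3:**
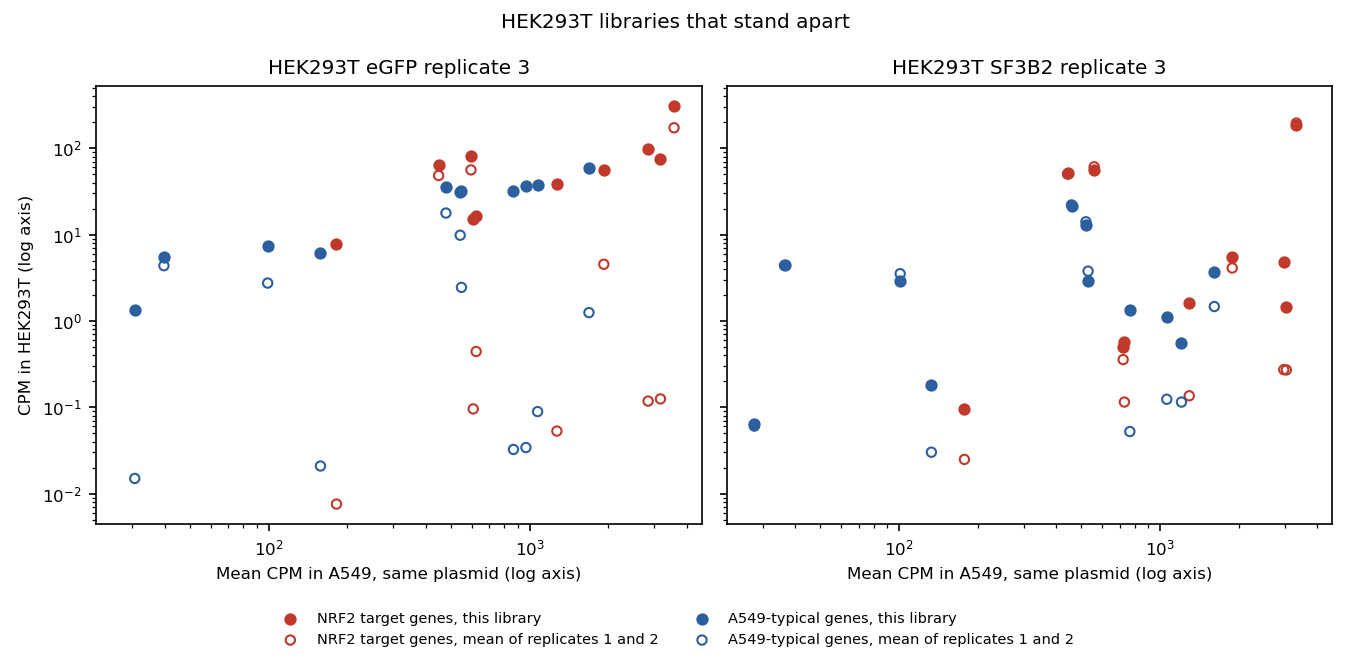
Both panels plot the CPM of a gene in a HEK293T library (filled) and the mean of replicates 1 and 2 of the same plasmid (open) against its mean CPM in A549 with that plasmid, on log axes, red for the members and blue for A549-typical genes. In eGFP replicate 3 every filled point lies above its open point, from FGG at 1.35 CPM to TXNRD1 at 310 CPM, and in SF3B2 replicate 3 the filled points lie clearly above for genes such as AKR1B10 (4.76 CPM) and near the open ones for TXNRD1 (188 CPM).

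Within A549 the members differed little between plasmids, by at most 0.32 on the log2 scale. In snaR-A against scramble, SF3B2 against scramble and eGFP against scramble, 0 of the 10 members had an adjusted p under 0.05 by edgeR's quasi-likelihood F-test, and 0 had an unadjusted p under 0.05. DESeq2 and edgeR's exactTest also called 0 in these 3 comparisons. Over all genes tested, 0.0185% were called in snaR-A against scramble, 0.233% in SF3B2 against scramble and 1.49% in eGFP against scramble. In snaR-A against scramble the log2 fold changes of the members ran from -0.11 (GPX2) to 0.09 (AKR1C2 and ALDH3A1), the latter with a standard error of 0.18 in ALDH3A1. These comparisons share the 3 scramble libraries, and replicate 3 among them stood apart.

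A549 scramble replicate 3 had 8 of the 10 members above both other scramble replicates and TXNRD1 below both. This count does not set the members apart, since no share of all genes is given for that library. AKR1C1 was at 833 CPM in it, the highest of the 12 A549 libraries, and at 519 and 537 CPM in replicates 1 and 2. ALDH3A1 was at 753 CPM in it, also the highest of 12, and at 455 and 540 CPM in the others. The same library held SF3B2 mRNA at 8773 CPM, against 340 and 371 CPM in the other scramble replicates and 45564 to 48885 CPM in the A549 SF3B2 libraries. What part this has in its member levels was not tested. Without that library, 4 members passed in SF3B2 against scramble, AKR1C1 by 0.46 on the log2 scale (standard error 0.05, adjusted p = 0.00444), ALDH3A1 by 0.53 (0.08, adjusted p = 0.00828), AKR1B10 by 0.27 (0.05, adjusted p = 0.0169) and AKR1C3 by 0.20 (0.05, adjusted p = 0.033), all by edgeR with 5 libraries, in a fit that called 21.9% of all genes. With it, the same fits gave 0.22 for AKR1C1 and 0.32 for ALDH3A1, with adjusted p-values of 0.543 and 0.412.

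SF3B2 against eGFP does not use the scramble libraries. In A549 AKR1C1 was at 745, 691 and 753 CPM in the SF3B2 replicates and at 639, 551 and 635 CPM in the eGFP replicates. ALDH3A1 was at 752, 673 and 741 CPM against 616, 579 and 676 CPM. AKR1C1 did not overlap between the groups, whereas the lowest SF3B2 value of ALDH3A1 lay under the highest eGFP value. The log2 fold change was 0.27 for AKR1C1 (standard error 0.07, adjusted p = 0.0692) and 0.22 for ALDH3A1 (0.07, adjusted p = 0.127) by edgeR, so 0 of the 10 members were called, where 7.02% of genes were, and 2 had an unadjusted p under 0.05. AKR1C1 was called by exactTest (adjusted p = 0.00958), which called 8.07% of genes. DESeq2, which called 13.3% of genes, called AKR1C1, ALDH3A1 and TXNRD1, the last with a log2 fold change of -0.10. Without A549 eGFP replicate 3, edgeR called AKR1C1 (0.31, adjusted p = 0.0318) and ALDH3A1 (0.29, adjusted p = 0.0209) higher and AKR1C2 lower (-0.15, adjusted p = 0.0295), in a fit that called 14.7% of genes. The direction for AKR1C1 and ALDH3A1 was the same in each of these fits, and the call rested on the test and on single libraries.

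**Figure D4:**
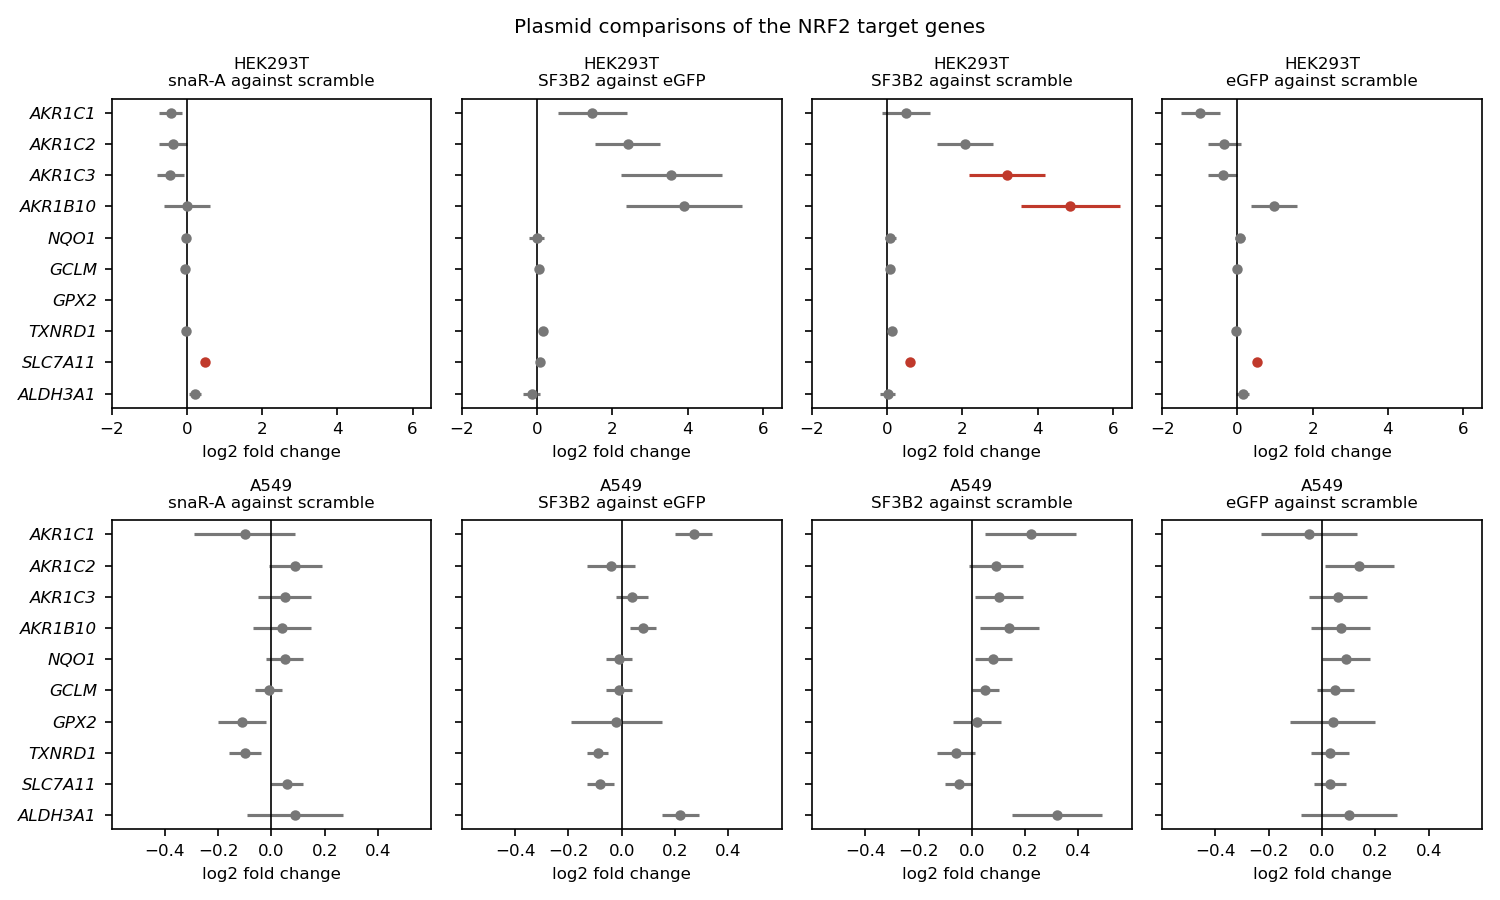
Each panel plots the log2 fold change of the members in 1 plasmid comparison with its standard error, in HEK293T in the upper row and in A549 in the lower row, whose axes differ, red where the adjusted p is under 0.05. No A549 point is red and none lies beyond 0.32 (ALDH3A1 in SF3B2 against scramble), while in HEK293T SLC7A11 is red in the 3 comparisons against scramble, and AKR1C3 and AKR1B10 only in SF3B2 against scramble. GPX2 was not tested in HEK293T.

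SLC7A11 was the member called in all 3 comparisons against scramble in HEK293T. Its levels were 35.9, 39.2 and 42.9 CPM in the scramble replicates and 55.8, 53.3 and 54.1 CPM with snaR-A. With SF3B2 they were 61.1, 61 and 56.5 CPM, and with eGFP they were 60.7 and 51.7 CPM. Each of the 8 libraries of the other plasmids was above each of the 3 scramble libraries, and snaR-A, SF3B2 and eGFP lay close to one another. The log2 fold change against scramble was 0.48 for snaR-A (standard error 0.06, adjusted p = 0.0011), 0.60 for SF3B2 (0.08, adjusted p = 0.00212) and 0.52 for eGFP (0.09, adjusted p = 0.00325), and for SF3B2 against eGFP it was 0.07 (0.09, adjusted p = 0.69). The first 3 comparisons share the scramble libraries, so they are not independent of one another. In A549 the levels were 562, 616 and 568 CPM with scramble, 624, 628 and 568 CPM with snaR-A, 541, 558 and 577 CPM with SF3B2 and 608, 620 and 561 CPM with eGFP, and the groups overlapped.

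**Figure D5:**
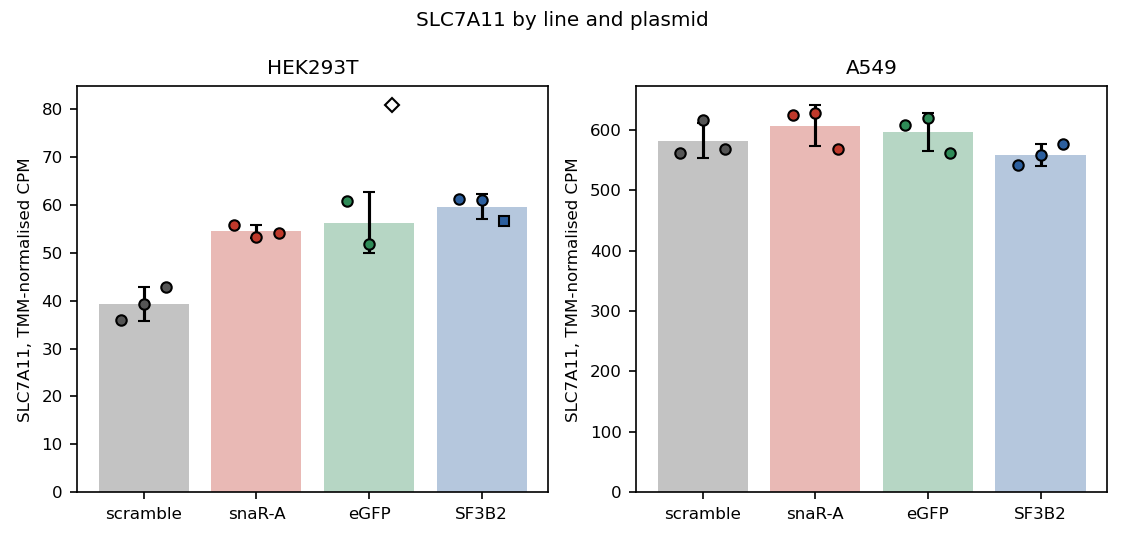
The bars show the mean TMM-normalised CPM of SLC7A11 by plasmid with the SD as an error bar, in HEK293T on the left and A549 on the right, and the points show the libraries. The HEK293T scramble bar stands at 39.3 CPM and the others at 54.4 to 59.5 CPM, with eGFP replicate 3 (open diamond, 80.7 CPM) left out of its mean, and the A549 bars stand at 559 to 607 CPM.

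Whether the effect on SLC7A11 differed between the lines was tested as an interaction term. For snaR-A against scramble the effect in A549 was lower than in HEK293T by 0.43 on the log2 scale (-0.43, standard error 0.10, adjusted p = 0.0157, edgeR), and 11.4% of all genes were called in this test. For eGFP against scramble the difference was -0.41 (standard error 0.12, adjusted p = 0.0324), where 25.5% of genes were called. In each, SLC7A11 was the 1 member called. Both calls were near the threshold, and the first was lost without HEK293T scramble replicate 1 (-0.32, adjusted p = 0.0536), HEK293T snaR-A replicate 2 or 3 or A549 scramble replicate 2, and the second without HEK293T eGFP replicate 1 (-0.27, adjusted p = 0.163) and without any of 5 other libraries. For SF3B2 against eGFP, 0 of the 10 members and 6.98% of genes were called, 5 members had an unadjusted p under 0.05, and DESeq2, which called 17.4% of genes, called 3 (AKR1C2, GPX2 and TXNRD1). GPX2 entered that test through A549 alone. In HEK293T it had 6, 6 and 27 counts with SF3B2 and 2 and 2 with eGFP, so its call is not support. The test also included HEK293T SF3B2 replicate 3. Without it edgeR called 5 members, AKR1C3 (-1.34), AKR1C2 (-1.17), AKR1B10 (-1.13), TXNRD1 (-0.29) and ALDH3A1 (0.52), where 19.5% of genes were called. In HEK293T, AKR1C3 then had 41 and 26 counts with SF3B2 and 13 and 15 with eGFP. AKR1C2 had 68 and 63 against 34 and 32, and AKR1B10 63 and 68 against 23 and 39. The calls of these 3 genes thus rest on low counts in 2 libraries per group of HEK293T.

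In HEK293T, snaR-A against scramble gave 1 called member of 9 tested, SLC7A11, where 36.3% of genes were called, and eGFP against scramble likewise 1 of 9, where 46.5% were. The share of members called was thus below that of all genes in both. However, AKR1C1, AKR1C2, AKR1C3, AKR1B10 and ALDH3A1 were low in HEK293T, with standard errors up to 0.61 (AKR1B10). Small changes in these genes could hardly be called, so the lower share does not describe the members as a set. The steady members were GCLM, with log2 fold changes of -0.04 and 0.00, TXNRD1, with -0.01 and -0.04, and NQO1, with -0.03 and 0.07, each with a standard error of at most 0.13. SF3B2 against eGFP gave 0 of 9 members by edgeR, where 0.0559% of genes were called. In that comparison 3 members had an unadjusted p under 0.05, and DESeq2, which called 6.15% of genes, called 1, AKR1C2.

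SF3B2 against scramble in HEK293T gave 3 called members of 9 tested, where 34.3% of genes were called. Beside SLC7A11 these were AKR1B10, at 0.237, 0.309 and 4.76 CPM in the SF3B2 replicates and 0.0277, 0.115 and 0.0369 CPM in the scramble replicates, and AKR1C3, at 0.154, 0.118 and 1.63 CPM against 0.0622, 0.0699 and 0.078 CPM. In both genes every SF3B2 library was above every scramble library, and replicate 3, in which 6 of the 11 A549-typical genes were also above both other replicates, carried most of the difference. The log2 fold change was 4.87 for AKR1B10 (standard error 1.32, adjusted p = 0.026) and 3.19 for AKR1C3 (1.01, adjusted p = 0.0446). Without replicate 3 it was 2.17 for AKR1B10 (0.55, adjusted p = 0.0198) and 0.97 for AKR1C3 (adjusted p = 0.0501), in a fit that called 38.8% of genes. The A549-typical KRT7 was also higher in SF3B2 replicates 1 and 2 (0.139 and 0.109 CPM) than with scramble (0.0207, 0.035 and 0.0164 CPM). ANXA1 was lower there (1.49 and 1.45 against 2, 2.09 and 2.03 CPM). With all 3 SF3B2 replicates, 9 A549-typical genes were tested, of which 3 were called higher and 3 lower. What part A549-typical RNA has in replicates 1 and 2 was not tested. DESeq2 gave AKR1B10 and AKR1C3 no adjusted p, and AKR1C3 was not called with scaling by library size alone (adjusted p = 0.0533). AKR1C2, at 0.256, 0.286 and 1.47 CPM with SF3B2 and 0.124, 0.259 and 0.0944 CPM with scramble, had an adjusted p of 0.0636 by edgeR's quasi-likelihood F-test, and was called by DESeq2 (adjusted p = 0.00553), by exactTest (0.0233) and with all HEK293T libraries in one fit (0.0225). AKR1B10 and AKR1C3 lost their calls without any 1 of the 3 scramble libraries. GPX2, not tested in HEK293T, had 6, 6 and 27 counts with SF3B2, 1, 0 and 0 with scramble, 0, 4 and 2 with snaR-A and 2 and 2 with eGFP.

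The other pathway genes, 36 to 39 of which were tested in each plasmid comparison, are given beside the share of all genes called. In A549, 0 of 39 were called with snaR-A, SF3B2 or eGFP against scramble by edgeR, with 3, 6 and 2 genes at an unadjusted p under 0.05, where 0.0185%, 0.233% and 1.49% of all genes were called. In SF3B2 against eGFP, 3 of 39 were called where 7.02% of all genes were, GPX1 (log2 fold change 0.35), TXNRD2, a mitochondrial thioredoxin reductase (0.25), and ABCC2, an exporter of glutathione conjugates (-0.19). In HEK293T against scramble, 6 of 36 rose and 10 fell with snaR-A, 3 rose and 13 fell with SF3B2, and 5 rose and 21 fell with eGFP. Of all genes, 36.3%, 34.3% and 46.5% were called in either direction. By direction, 4031 rose and 4198 fell of 22667 genes with snaR-A, and 3790 rose and 3958 fell of 22593 with SF3B2. With eGFP 5077 rose and 5735 fell of 23259. In SF3B2 against eGFP, 0 of 36 were called by edgeR, with 5 at an unadjusted p under 0.05. SLC3A2, the partner of SLC7A11 in the cystine transporter, was chosen after its values were seen. In HEK293T it was at 116, 114 and 107 CPM with scramble, 159, 169 and 158 CPM with snaR-A, 188 and 208 CPM with eGFP, and 109, 141 and 172 CPM with SF3B2. It rose with snaR-A (log2 0.54, adjusted p = 0.000283) and eGFP (0.82, adjusted p = 0.000183), and its SF3B2 values overlapped those of scramble.

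Of the 11 regulators in HEK293T against scramble, 1 rose and 4 fell with snaR-A, 3 rose and 3 fell with SF3B2, and 4 rose and 5 fell with eGFP. The shares of all genes called, and their rises and falls, are those given for the other pathway genes. NFE2L2 and MAFF are named after their values were seen. NFE2L2 rose with SF3B2 (log2 0.26, adjusted p = 0.0279) and eGFP (0.17, adjusted p = 0.0271) against scramble, and MAFF fell with snaR-A (-0.89), SF3B2 (-0.69) and eGFP (-0.58), with adjusted p-values of 0.00108, 0.00723 and 0.00621. The MAFF values were 4.92, 4.1 and 4.22 CPM with scramble and 2.15 to 3.1 CPM in the 8 other libraries. In A549, 0 of the 11 regulators were called with snaR-A or SF3B2 against scramble by edgeR, with 1 gene at an unadjusted p under 0.05 in each. NFE2L3 rose with eGFP against scramble (0.69, adjusted p = 0.00456) and was lower in SF3B2 than in eGFP (-0.77, adjusted p = 0.000242), and SQSTM1 was higher in SF3B2 than in eGFP (0.17, adjusted p = 0.0446).

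The genes whose levels followed the members most closely over the 12 A549 libraries were taken from 12159 other genes with a mean of at least 1 log2 CPM. UBE3D had a Pearson correlation of 0.96 with the mean standardized level of the 10 members, NRSN2 0.94 and ACSS1 0.94. The standardized mean itself was lowest in scramble replicate 1 (-1.32) and highest in scramble replicate 3 (0.74), followed by eGFP replicate 1 (0.65), so that scramble held both ends. The 12 libraries share their plasmid groups, and these correlations are given as a description.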

How the data were processed

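Poly(A)-enriched, rRNA-depleted RNA was sequenced as 24 stranded libraries. Reads had been trimmed (TrimGalore) and assigned to transcripts (Salmon) by the authors, and the deposited values are estimated counts per Ensembl gene without scaling between libraries. hg38 is named in the submitters' processing notes. The transcriptome release and the step from transcripts to genes are not given in the sources used here. Of the values, 51% were not whole, and all were rounded, which set 0.034% to 0.

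The fits were run with edgeR 4.0.16 (limma 3.58.1) in R 4.3.3, alternatives with DESeq2 1.42.0, and tables were made in Python 3.11.15. Genes were filtered with filterByExpr, scaled by TMM and fitted in edgeR (quasi-likelihood F-test). Adjusted p-values are Benjamini-Hochberg values over all genes tested. The lines were compared over 23 libraries with HEK293T eGFP replicate 3 left out, the plasmids over the libraries of their own groups, and the effects between lines as interaction terms. Calls between lines needed an adjusted p under 0.05 and a log2 fold change beyond 1 in either direction, other calls an adjusted p under 0.05. Standard errors were the log2 fold change over the square root of F. Each fitting step was first checked on simulated counts in which 200 genes were changed.

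The members and lists were chosen with earlier results of these data known. The rule for named genes was all members in every comparison, all 11 regulators between the lines, the 3 largest and 3 lowest of the other pathway genes between the lines, those of them called in a plasmid comparison where at most 5 were, and the 3 genes most like the members over the A549 libraries. TRIM16L, which has 2 identifiers, was left out of the other pathway genes. Regulators named in plasmid comparisons and SLC3A2 were added after their values were seen. Likeness used log2(CPM + 0.01). The A549-typical list was KRT7, FGB, FGG, TM4SF1, CAV1, ANXA1, ANXA3, LGALS3, CD44, EGFR and TGFBI, and the HEK293T-typical list CDKN2A, LIN28B, PAX2, NEFM, NEFL, INA, TUBB2B, CKB, ZIC2, CRMP1, MAP1B and SALL2. A further gene of the lists is not reported here. Positions came from the GENCODE annotation of GRCh38. Promoter windows came from RefSeq (GRCh38.p14).

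Alternatives were RLE factors, library size alone, no filter, at least 10 counts in every library, the DESeq2 Wald test, exactTest, all libraries of a line in one fit, each plasmid alone, the replicate number as a block, HEK293T eGFP replicate 3 included, and each library left out.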

Additional observations from a re-analysis of the deposited data

Results flagged for a closer look

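The effect of snaR-A against scramble on SLC7A11 differed between the lines by a log2 difference of -0.43 (A549 minus HEK293T, edgeR interaction term, adjusted p = 0.0157), and that of eGFP against scramble by -0.41 (adjusted p = 0.0324). In HEK293T SLC7A11 was higher with snaR-A in 3 of 3 libraries, and with eGFP in 2 of 2, than in every scramble library.

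HEK293T eGFP replicate 3, which none of the comparisons above used, held every member above the highest of the other 11 HEK293T libraries. This does not set the members apart, since the A549-typical genes were also raised in that library and no share of all genes is given. Its levels were 15.1 CPM for AKR1C1, 74.7 for AKR1C2, 38.3 for AKR1C3, 99.5 for AKR1B10, 56.2 for NQO1, 64.1 for GCLM, 7.79 for GPX2, 310 for TXNRD1, 80.7 for SLC7A11 and 16.4 for ALDH3A1. The highest of the other HEK293T libraries was at 0.573, 1.47, 1.63, 4.76, 5.47, 51.8, 0.0967, 200, 61.1 and 0.502 CPM, in the same order.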

How the results depend on the processing

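The count of members called higher in A549 was 10 under every alternative except DESeq2 (9, which gave AKR1B10 no adjusted p) and at least 10 counts in every library (8, which tested neither GPX2 nor AKR1B10). It was 10 with each of the 23 libraries left out. Including HEK293T eGFP replicate 3 lowered the folds, to 4141-fold for AKR1B10 and 8.76-fold for GCLM, without losing a call. In HEK293T snaR-A against scramble the count was 1 under every alternative, and in A549 snaR-A and eGFP against scramble it was 0 under every alternative. The count in HEK293T SF3B2 against scramble (3) was 5 without a low-count filter (AKR1C2 and GPX2 added) and 1 with the replicate block, and 1 to 4 with a library left out. It was 2 by DESeq2 (SLC7A11 and AKR1C2) and 4 by exactTest and with one fit for the line (AKR1C2 added). In HEK293T SF3B2 against eGFP (0) it was 1 by DESeq2 and 0 to 0 with a library left out. In HEK293T eGFP against scramble (1) it was 4 with eGFP replicate 3, and 1 to 2 with a library left out. In A549 SF3B2 against eGFP (0) it was 3 by DESeq2, 1 by exactTest and 1 with the replicate block, and 0 to 3 with a library left out. In A549 SF3B2 against scramble (0) it was 0 to 4 with a library left out. For the effects between lines it was 0 to 1 with a library left out for snaR-A (1), 3 by DESeq2 and 0 to 5 for SF3B2 against eGFP (0), and 0 with the replicate block, 2 with HEK293T eGFP replicate 3 and 0 to 1 with a library left out for eGFP (1). The cause of these changes was not tested.

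Over all genes, the replicate numbers gave no sign of pairing between libraries. Residuals of same-numbered libraries correlated between -0.122 and 0.0973 over 18 pairs in A549 and between -0.0483 and 0.0377 over 15 in HEK293T. Pairing of the members themselves was not tested. In A549 SF3B2 against eGFP, the replicate block lowered the standard error of AKR1C1 from 0.07 to 0.04 and of GPX2 from 0.17 to 0.09. It raised that of SLC7A11 from 0.05 to 0.06 and of TXNRD1 from 0.04 to 0.05. No member called before any alternative was applied changed direction under one. AKR1C2, called by DESeq2 in HEK293T SF3B2 against eGFP (2.42), was at -5.22 in edgeR with HEK293T eGFP replicate 3 included. Depth limits GPX2 in HEK293T, which had 0 to 6 counts in 10 of the 11 libraries.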
